A study of Mus musculus with 2 samples.

Results

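Iron handling genes were followed through the cell types of the mouse kidney 14 days after an ischemic injury: *Fth1*, *Ftl1*, *Tfrc*, *Slc11a1*, *Slc11a2*, *Trf*, *Slc40a1*, *Cp*, *Hmox1* and *Cd163*. They were chosen by symbol, 10 of the 32285 genes counted, and selected on their measured levels by cell type and on the difference between the libraries, so those levels and differences are given as a description. Single-cell RNA-seq with the 10X Genomics 3′ kit was carried out on kidneys that had undergone unilateral ischemia-reperfusion injury (uIRI, 25 minutes of renal artery clamping). The question was how inactivation of the oxygen sensors PHD1, PHD2 and PHD3 in endothelium after the injury bears on each cell type of the kidney. Each genotype gave 1 library of 1 mouse, so nothing was tested between the genotypes and no p-value was computed.

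Both mice were 8 to 10 weeks old and received 4 doses of 3 mg tamoxifen after the injury, given every other day. The PHDTiEC mouse carried Cdh5-CreERT2, a tamoxifen-inducible Cre driven by the promoter of the endothelial cadherin gene, together with floxed Phd1, Phd2 and Phd3 alleles (Phd1f/f, Phd2f/f, Phd3f/f). The control was a Cre- littermate, for which the label gives no floxed alleles. Genotype, mouse and library cannot be told apart in this design. The 95% intervals given below are exact binomial (Clopper-Pearson) intervals on how the counts divide between the libraries. They hold counting error alone, with each UMI taken as independent, and say nothing of how cells or mice vary.

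Iron enters most cells bound to transferrin (*Trf*) through the transferrin receptor (*Tfrc*), crosses endosomal and phagosomal membranes through *Slc11a2* and *Slc11a1*, and is stored in ferritin, a shell of heavy (*Fth1*) and light (*Ftl1*) chains. It leaves through ferroportin (*Slc40a1*), and ceruloplasmin (*Cp*), a copper-containing ferroxidase, oxidizes it so that it can be loaded onto transferrin. Macrophages also take up heme iron, through the hemoglobin-haptoglobin receptor CD163 (*Cd163*), and heme oxygenase 1 (*Hmox1*) releases the iron from heme. In cells short of iron, iron regulatory proteins bind a short hairpin in the mRNA, the iron-responsive element, which blocks translation when it lies in the 5′ UTR and protects the mRNA when it lies in the 3′ UTR.

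These hairpins are shown because through them the same iron signal acts on storage and export in one direction and on uptake in the other, after transcription. A search of GENCODE vM21 transcripts for the loop CAGTGN flanked by 5 paired stem bases and an unpaired C found it in a UTR of 157 of 21901 coding genes (0.717%) and in 4 of the 10 members, 7 elements in all. The sequences are from GRCm38, 5′ to 3′ on the strand of the gene, with the loop in capitals. The elements of *Fth1* (chr19:9982732-9982761, plus strand), *Ftl1* (chr7:45459778-45459807, minus strand) and *Slc40a1* (chr1:45925464-45925493, minus strand) lie in the 5′ UTR, and those of *Tfrc* lie in the 3′ UTR on the plus strand of chromosome 16.
Fth1: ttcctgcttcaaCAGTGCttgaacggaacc
Ftl1: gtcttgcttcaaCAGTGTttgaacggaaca
Slc40a1: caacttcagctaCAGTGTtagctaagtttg
Tfrc, chr16:32631219-32631248: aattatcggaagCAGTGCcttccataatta
Tfrc, chr16:32631598-32631627: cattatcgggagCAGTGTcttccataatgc
Tfrc, chr16:32631663-32631692: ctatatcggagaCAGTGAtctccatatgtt
Tfrc, chr16:32631710-32631739: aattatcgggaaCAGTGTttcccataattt
The other 6 members had no such match in an annotated UTR, which says only that these letters were not found there: elements of another shape, such as the 3′ UTR element known in *Slc11a2*, are not found by this search. The counts below are of RNA and do not show whether an element was bound.

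The promoters were searched as well, in the 250 bases before each RefSeq start (GRCm38.p6), for ACGTG, the core of the hypoxia response element, and for TGACNNNGC, the core of the antioxidant response element, on both strands. Starts were listed for *Cp*, *Cd163*, *Fth1*, *Ftl1*, *Tfrc* and *Slc11a1*, and among them 1 match was found, ACGTG before the second start of *Tfrc*. Of 32851 promoters of the same length, 16.6% held ACGTG and 10.2% held TGACNNNGC. A match is a string of letters and not a shown binding site.

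The libraries were of similar depth, with 136004367 UMIs (counted molecules) in Cre- and 146758812 in PHDTiEC, of which 8548 and 9309 barcodes were kept, with medians of 7500 and 7898 UMIs. They shared 28 barcodes. After the cluster with the largest share of *Gm26917*, a transcript associated with ribosomal RNA, was left out, 16773 cells remained, in 19 classes named by markers ("-like") and 10 clusters (2305 cells) that stayed without a name. The iron genes took no part in the clustering. None of the targeted genes was lower beyond the counting interval in the library labelled PHDTiEC: in endothelial-like cells *Egln2* (PHD1) was at 43.9 and 39.3 CPM (UMIs of the gene in 1000000 UMIs of the class), *Egln1* (PHD2) at 67.4 and 202 CPM and *Egln3* (PHD3) at 26.3 and 160 CPM, in Cre- and PHDTiEC in that order, as are all pairs of values below. UMIs summed over a gene do not show whether an exon was removed, and the direction of each difference rests on the library labels.

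Of the 190 combinations of a member with a named class, 151 had at least 20 UMIs over both libraries and were given a ratio. In 11 of them (7.28%) the CPM of the 2 libraries differed at least 2-fold, 9 higher and 2 lower in PHDTiEC, against 4.43% of all gene and class combinations. In 72 of the 151 the counting interval of the log2 ratio lay to one side of 0, against 22.5% of all gene and class combinations, and such a count grows with the UMIs of a gene. Over all kept cells *Fth1* made up 0.797% and 0.806% of all UMIs and *Ftl1* 0.465% and 0.451%, *Cp* stood at 192 and 193 CPM and *Hmox1* at 61.4 and 62.6 CPM. The kidney-wide sums of these 4 genes were thus close in the libraries, as were those of *Slc11a1* (37.1 and 38.7 CPM), *Slc11a2* (28.7 and 28.4 CPM) and *Slc40a1* (44.4 and 43.3 CPM). Those of *Trf* (140 and 163 CPM), *Tfrc* (16.1 and 18.2 CPM) and the rare *Cd163* (0.402 and 0.875 CPM, from 47 and 115 UMIs) were higher in PHDTiEC.

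**Figure D1:**
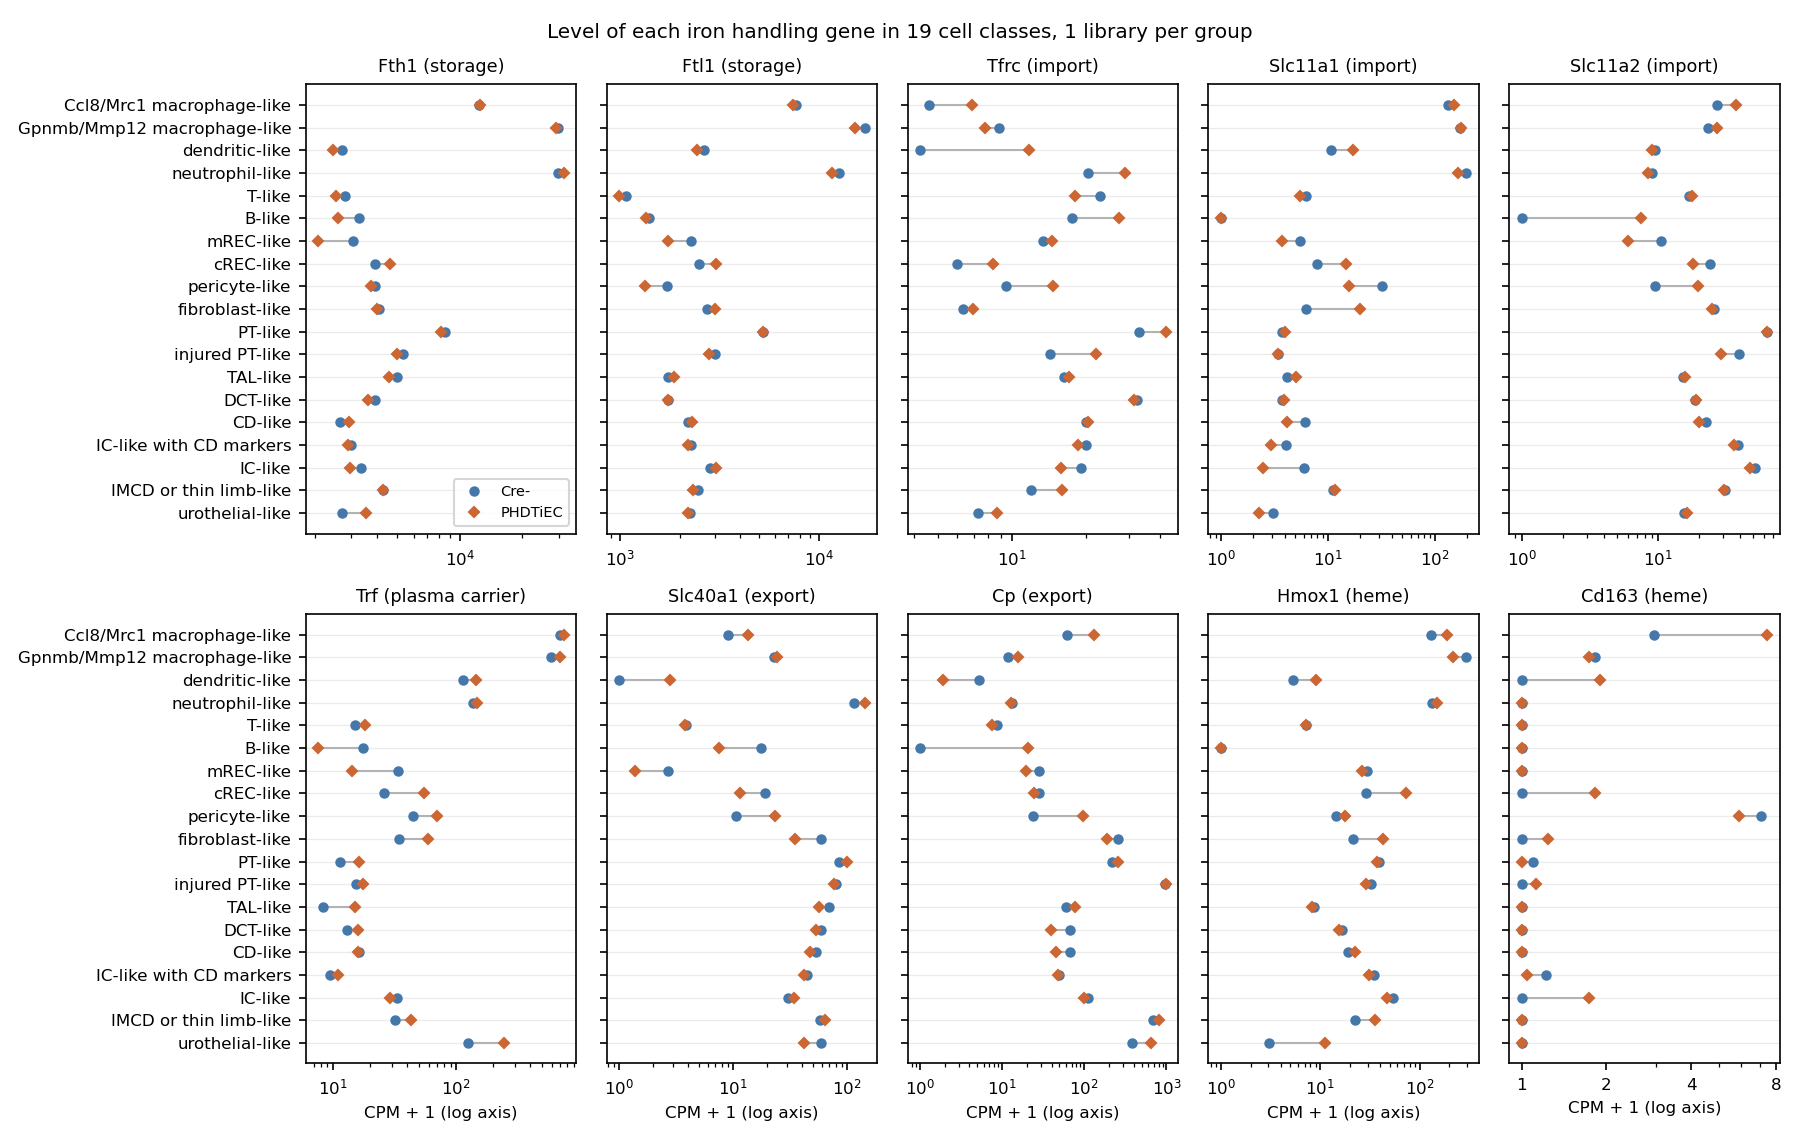
Level of each member in 19 cell classes, as CPM + 1 on a log axis; each row is a class, circles are the Cre- library and diamonds the PHDTiEC library. *Fth1*, *Ftl1*, *Slc11a1*, *Trf* and *Hmox1* were highest in macrophage-like or neutrophil-like cells, *Cp* in injured PT-like cells and *Tfrc* and *Slc11a2* in PT-like cells.

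Ferritin RNA was highest in phagocytes. *Fth1*, the heavy chain with ferroxidase activity, stood at 29934 and 29088 CPM in the Gpnmb/Mmp12 macrophage-like class and at 29782 and 31775 CPM in neutrophil-like cells, and these values overlapped between the libraries. Next came Ccl8/Mrc1 macrophage-like cells (12407 and 12600 CPM) and PT-like cells, the differentiated proximal tubule (8520 and 8132 CPM), each apart from its neighbours in both libraries. The remaining classes lay between 2079 and 5322 CPM, with mREC-like cells lowest on average.

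The light chain *Ftl1* was highest in the same 4 classes, at 16889 and 15049 CPM in Gpnmb/Mmp12 macrophage-like cells, 12496 and 11596 CPM in neutrophil-like cells, 7612 and 7352 CPM in Ccl8/Mrc1 macrophage-like cells and 5198 and 5235 CPM in PT-like cells. *Ftl1* was lowest in T-like cells (1069 and 989 CPM). The neutrophil-like class fell into parts at a higher clustering resolution, each described by the genes that led it against the rest of the class. The whole class held the 9 macrophage markers at 1368 and 1369 CPM, against 19588 and 19538 CPM in Ccl8/Mrc1 macrophage-like cells. Its part led by *Retnlg* (377 and 370 cells) held *Ftl1* at 6975 and 7469 CPM and *Fth1* at 24272 and 28339 CPM. Its part led by the macrophage genes *C1qa* and *Apoe* (249 and 289 cells) held *Ftl1* at 20350 and 16914 CPM and *Fth1* at 37622 and 36203 CPM. Neither chain reached a 2-fold difference between the libraries in any of the 19 classes, their log2 ratios (PHDTiEC over Cre-) running from -0.55 to 0.39 for *Fth1* and from -0.37 to 0.29 for *Ftl1*. With these counts even small differences exceeded the counting interval: in Gpnmb/Mmp12 macrophage-like cells the log2 ratio was -0.04 (-0.05 to -0.03) for *Fth1* and -0.17 (-0.18 to -0.16) for *Ftl1*. Ferritin genes have many processed copies, and the annotated copy *Ftl1-ps1* was counted at 161 and 129 CPM in the same cells, so reads of near-identical copies may be divided among them.

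Among the importers, the transferrin receptor *Tfrc* was highest in the tubule, at 31.7 and 41.0 CPM in PT-like cells (log2 ratio 0.37, 0.17 to 0.57) and 31.2 and 30.2 CPM in DCT-like cells of the distal convoluted tubule. In injured PT-like cells it stood at 13.3 and 20.9 CPM, from 116 and 172 UMIs (0.65, 0.30 to 1.00). It was lowest on average in Ccl8/Mrc1 macrophage-like cells, where 39 and 69 UMIs gave 3.61 and 5.92 CPM (0.71, 0.12 to 1.32). These 3 classes were the ones in which the interval of *Tfrc* lay above 0, and in none did it lie below.

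*Slc11a1* (NRAMP1), a metal transporter of the phagosome, was a phagocyte gene in these kidneys. It stood at 197 and 165 CPM in neutrophil-like cells, 172 and 173 CPM in Gpnmb/Mmp12 macrophage-like cells and 133 and 149 CPM in Ccl8/Mrc1 macrophage-like cells, whereas no other named class exceeded 31.4 CPM in either library. *Slc11a2* (DMT1), its endosomal relative, was instead highest in the tubule, with 62.3 and 62.5 CPM in PT-like cells and 50.5 and 46.5 CPM in IC-like (intercalated) cells. In injured PT-like cells it was lower in PHDTiEC, at 38.7 and 28.2 CPM (log2 ratio -0.46, -0.70 to -0.21), and in Ccl8/Mrc1 macrophage-like cells it was higher, at 26.3 and 36.7 CPM (0.48, 0.26 to 0.70).

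Outside the phagocytes *Slc11a1* differed past 2-fold in fibroblast-like cells, where 10 and 80 UMIs gave 5.31 and 19.05 CPM (1.84, 0.89 to 2.96; 5.9% of genes were past 2-fold in that class), and in pericyte-like cells in the other direction, where 26 and 15 UMIs gave 31.4 and 14.7 CPM (-1.09, -2.12 to -0.12; 8.55% of genes). The summed neutrophil markers moved the same way in both classes. In fibroblast-like cells 5 of 6 markers were seen in Cre-, with *Retnlg* at 0, and the list stood at 50.5 and 218 CPM. In pericyte-like cells all 6 were seen in Cre-, and the list stood at 863 and 14.7 CPM. The part of other cells in these 2 differences was not tested.

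*Trf*, which encodes the plasma carrier transferrin, was a macrophage transcript here: it stood at 698 and 747 CPM in Ccl8/Mrc1 macrophage-like cells and at 585 and 691 CPM in Gpnmb/Mmp12 macrophage-like cells, with UMIs in 91.3% and 92.2% of the former. The next class, urothelial-like cells (25 and 33 cells), stood at 123 and 243 CPM (log2 ratio 0.98, 0.55 to 1.43). *Trf* was higher in PHDTiEC beyond the counting interval in 10 of 18 classes and lower in 1, where 14.3% of all gene and class combinations were higher. It had log2 ratios of 0.10 in Ccl8/Mrc1 and 0.24 in Gpnmb/Mmp12 macrophage-like cells, 0.57 in PT-like cells, 0.81 in fibroblast-like cells and 0.96 in TAL-like cells of the thick ascending limb. The level in PT-like cells was low, at 10.3 and 15.3 CPM, as was that in TAL-like cells, at 7.24 and 14.1 CPM. Both were under the level in barcodes with fewer than 100 UMIs (130 and 138 CPM), which measure free RNA. Levels in fibroblast-like (33.5 and 58.6 CPM), mREC-like and cREC-like cells were under it too. The share of free RNA, a median over marker lists of other lineages, was 10.6% and 7.93% in PT-like and 14.1% and 17.1% in TAL-like cells. Its part in the *Trf* counts of these classes was not tested. In fibroblast-like cells the ratio of *Trf* was -0.04 once the 5% of barcodes with the highest doublet scores were left out.

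Of the exporters, ferroportin (*Slc40a1*) was highest in neutrophil-like cells (115 and 142 CPM, from 142 and 189 UMIs) and then in the tubule, at 84.3 and 98.5 CPM in PT-like, 79.2 and 76.7 CPM in injured PT-like and 68.6 and 55.6 CPM in TAL-like cells. In fibroblast-like cells it was lower in PHDTiEC, at 58.4 and 34.3 CPM (log2 ratio -0.77, -1.14 to -0.40), and in TAL-like cells likewise (-0.30, -0.45 to -0.16). Macrophage-like cells held little of it: 21.95 and 23.2 CPM in the Gpnmb/Mmp12 class and 8.06 and 12.4 CPM in the Ccl8/Mrc1 class (0.62, 0.23 to 1.03), where 87 and 145 UMIs came from 3.55% of cells in each library and 1 PHDTiEC cell alone held 29. In mREC-like cells 3 and 1 UMIs were counted, and no ratio was given.

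Among the named classes ceruloplasmin was highest in the injured and the inner medullary epithelium. *Cp* (chr3:19957054-20009145, plus strand) stood at 967 and 972 CPM in injured PT-like cells, which carried *Havcr1* and *Vcam1*, and was found in 99.3% and 96.5% of them. IMCD or thin limb-like cells followed at 677 and 811 CPM and urothelial-like cells at 381 and 655 CPM, all apart from each other in both libraries. PT-like cells stood at 214 and 259 CPM and overlapped with fibroblast-like cells at 258 and 190 CPM. The 8 injured PT markers summed to 29297 and 24688 CPM in PT-like cells against 52260 and 43792 CPM in the injured class. They were not confined to the proximal tubule, at 41407 and 29240 CPM in TAL-like and 26497 and 15017 CPM in DCT-like cells. Gpnmb/Mmp12 macrophage-like, T-like, dendritic-like, neutrophil-like and B-like cells were lowest on average, at no more than 19.7 CPM in either library. A cluster without a name (179 and 220 cells), in which markers of 3 lists led together, stood at 1091 and 1034 CPM of *Cp*, level with the injured PT-like cells.

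In injured PT-like cells *Cp* did not differ between the libraries beyond counting error, with 8425 and 7999 UMIs and a log2 ratio of 0.01 (-0.04 to 0.05). Other epithelial classes went both ways, with ratios of 0.26 in IMCD or thin limb-like cells, 0.28 in PT-like cells, 0.35 in TAL-like cells and 0.78 in urothelial-like cells, against -0.59 in CD-like (collecting duct) cells and -0.82 in DCT-like cells. Free RNA held *Cp* at 153 and 146 CPM, above its level in TAL-like (59.7 and 76.0 CPM), CD-like (66.7 and 44.3 CPM), DCT-like (66.7 and 37.9 CPM) and pericyte-like cells. The share of free RNA was 14.1% and 17.1% in TAL-like, 13.9% and 14.3% in CD-like and 14.7% and 11.9% in DCT-like cells. Its part in these differences was not tested. The fibroblast-like ratio of -0.44 rested on 1 Cre- cell with 162 UMIs of *Cp* and was 0.10 without the highest cell of each library. In pericyte-like cells 19 and 98 UMIs gave 22.96 and 96.1 CPM (2.07, 1.35 to 2.86), of which 40 UMIs lay in 1 cell, and the injured PT markers stood at 3682 and 7052 CPM in the same cells. When each pericyte-like cell was given equal weight the ratio was -0.14.

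One difference in *Cp* stayed past 2-fold under every alternative processing, that in Ccl8/Mrc1 macrophage-like cells, a class of 1661 and 1716 cells led by *Ccl8*, *Ccl12* and *Mrc1*. It held 659 UMIs of *Cp* in Cre- and 1502 in PHDTiEC, which is 61.1 and 129 CPM (log2 ratio 1.08, 0.94 to 1.21). In this class 2.47% of 11927 genes were past 2-fold in either direction, and 94 genes had a higher ratio than *Cp*. No single cell carried the difference: the highest cells held 11 and 13 UMIs, and cells with at least 5 UMIs numbered 18 and 74.

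*Cp* was detected in 21.4% of these macrophage-like cells in Cre- and 37.2% in PHDTiEC, at median depths of 6234 and 6543 UMIs. In T-like cells, which should lack the gene, the shares were 3.01% and 2.65% at 3192 and 3307 UMIs. After every cell was thinned to 2000 UMIs, which left out 53 and 54 of these macrophage-like cells and 67 and 67 T-like cells, the shares were 9.83% and 19.1% in the macrophage-like and 2.07% and 0.77% in the T-like cells. The shares in Ccl8/Mrc1 macrophage-like cells lay above those in T-like cells in both libraries. The 10 proximal tubule markers stood at 30.5 and 24.8 CPM and the 8 injured PT markers at 971 and 746 CPM in this class. The 9 macrophage markers were at 19588 and 19538 CPM. In Gpnmb/Mmp12 macrophage-like cells the injured PT list stood at 8301 and 5387 CPM and the proximal tubule list at 19.7 and 21.7 CPM, so the lists did not go together. Free RNA held *Cp* at 153 and 146 CPM, above its 61.1 and 129 CPM in the Ccl8/Mrc1 class, where the share of free RNA was 4.25% and 4.24%. The part of RNA from other cells in the *Cp* difference was not tested.

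Clusters of all cells at a higher resolution, chosen after the data were seen, divided the Ccl8/Mrc1 class into 3 parts of at least 50 cells. *Cp* was higher in PHDTiEC in each. The finer cluster led by *Ccl7*, *Ccl8* and *Ccl12* held the most *Cp*, at 101 and 173 CPM (0.77, 0.61 to 0.94). The cluster led by *S100a4* and *Napsa* stood at 32.5 and 85.1 CPM (1.39, 1.06 to 1.73) and the cluster led by *Fn1* and *Capg* at 30.8 and 90.9 CPM (1.56, with its interval above 1). The last of these clusters also held 73 and 120 cells of the Gpnmb/Mmp12 class, so the border between the classes cut through it. In the Gpnmb/Mmp12 class *Cp* was lower in level, at 10.7 and 14.5 CPM from 104 and 178 UMIs (0.44, 0.08 to 0.80). After thinning it was seen there in 2.39% and 1.97% of cells, beside 2.07% and 0.77% of T-like cells.

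**Figure D2:**
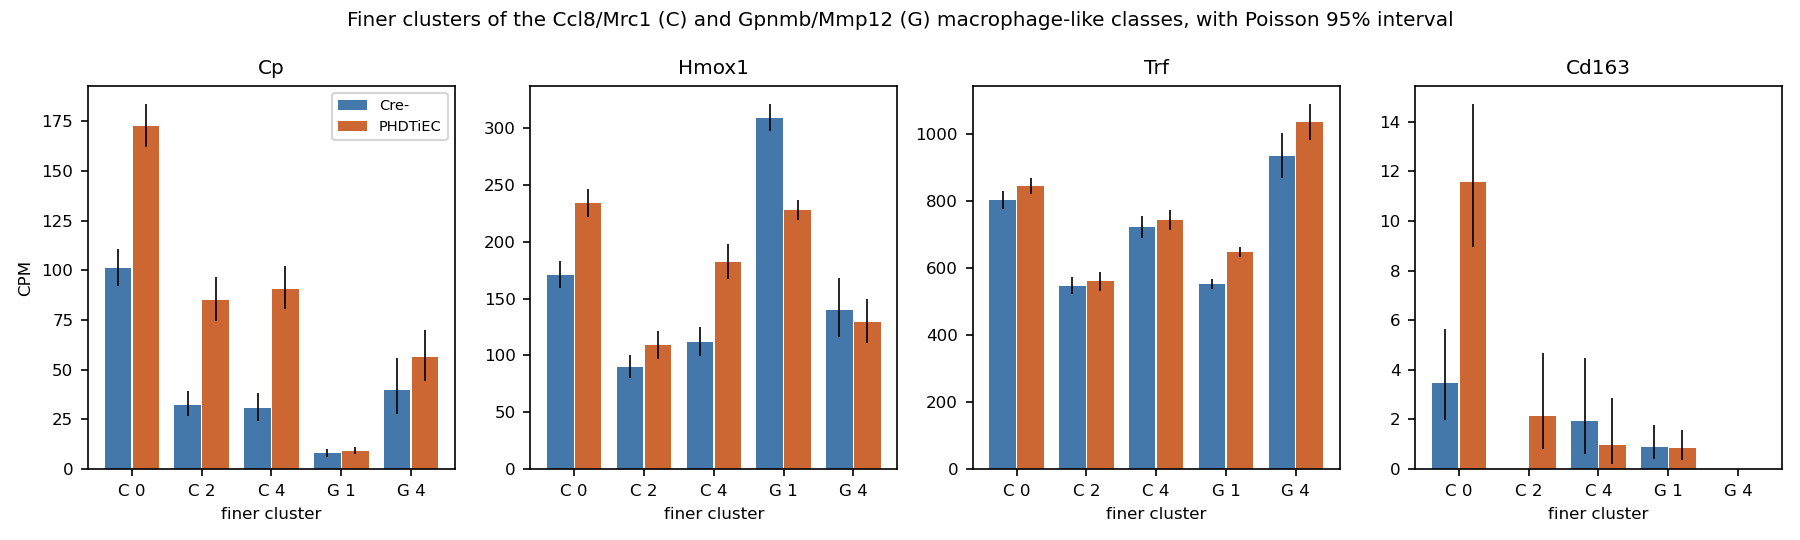
CPM of *Cp*, *Hmox1*, *Trf* and *Cd163* in the finer clusters of the Ccl8/Mrc1 (C 0, C 2, C 4) and Gpnmb/Mmp12 (G 1, G 4) macrophage-like classes; blue bars are Cre-, orange bars PHDTiEC, and error bars are 95% Poisson intervals of the counts. *Cp* and *Hmox1* were higher in PHDTiEC in all 3 Ccl8/Mrc1 clusters, and *Hmox1* was lower in the larger Gpnmb/Mmp12 cluster. C 4 and G 4 are the parts of the same finer cluster that fell in each class.

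*Hmox1*, the enzyme that opens the heme ring, was highest in Gpnmb/Mmp12 macrophage-like cells and lower there in PHDTiEC: 2861 and 2646 UMIs gave 295 and 216 CPM (log2 ratio -0.45, -0.53 to -0.37; 2.57% of genes in the class were past 2-fold). In Ccl8/Mrc1 macrophage-like cells it was higher, at 130 and 189 CPM from 1401 and 2205 UMIs (0.54, 0.44 to 0.64). Its UMIs were more concentrated in a few cells in PHDTiEC: the highest 1% of cells held 13.5% of the UMIs of *Hmox1* in Cre- and 29.2% in PHDTiEC, and the highest single cells held 15 and 107 UMIs. The ratio was positive in all 3 finer Ccl8/Mrc1 clusters (0.45, 0.27 and 0.71) and negative in both Gpnmb/Mmp12 clusters (-0.44 and -0.12, the latter with a counting interval that includes 0). The values of 0.71 and -0.12 came from the same finer cluster, cut by the border between the classes.

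Red cell RNA differed in the same 2 classes. *Hbb-bs*, an adult beta-globin gene named after its values were seen, had 46 and 597 UMIs in the Ccl8/Mrc1 class (4.26 and 51.2 CPM) and 3793 and 684 UMIs in the Gpnmb/Mmp12 class (391 and 55.9 CPM), so in CPM it was higher or lower in PHDTiEC where *Hmox1* was. Single cells held most of these counts, 434 of the 597 UMIs in PHDTiEC Ccl8/Mrc1 cells and 2126 of the 3793 in Cre- Gpnmb/Mmp12 cells. The share of cells with a UMI of *Hbb-bs* was higher in PHDTiEC in both classes, at 0.722% and 5.48% in the Ccl8/Mrc1 and 0.988% and 3.85% in the Gpnmb/Mmp12 class, the latter opposite to *Hmox1*. The part of red cell RNA in the differences of *Hmox1*, and of *Cp* in the same Ccl8/Mrc1 cells, was not tested.

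*Cd163*, the scavenger receptor for hemoglobin bound to haptoglobin, was rare. It was counted 47 and 115 times over all kept cells, and 9 of the 19 classes held no UMI of it in either library. The largest of those 9 classes were T-like and neutrophil-like cells, in which 0 UMIs allow a share of cells with a UMI of up to 0.501% and 0.419% (T-like) and 0.479% and 0.455% (neutrophil-like). Ccl8/Mrc1 macrophage-like cells held 21 and 75 UMIs, or 1.95 and 6.43 CPM (log2 ratio 1.72, 1.01 to 2.50), in 1.02% and 2.62% of cells, and 26 of 11927 genes had a higher ratio. Of those UMIs 16 and 66 lay in the finer cluster led by *Ccl7*, *Ccl8* and *Ccl12*. The Gpnmb/Mmp12 class held 8 and 9 UMIs and pericyte-like cells 5 and 5, too few for a ratio.

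Class by class, the largest number of members with an interval above 0 was in Ccl8/Mrc1 macrophage-like cells. All 10 had at least 20 UMIs there, 9 intervals lay above 0, against 16.7% of all genes of the class, and 1 (*Ftl1*, log2 ratio -0.05) below, and 2 were past 2-fold. The 9 include *Fth1* at 0.02, whose interval is narrow because its counts are high. Such a count grows with the UMIs of a gene, and the members were selected with these differences known. The values over all genes are therefore set beside them as a description only. The median log2 ratio was 0.51, against 0.04 over all genes of the class. Pericyte-like cells had a median of 0.66 (0.11 over all genes), with 3 intervals of 9 above 0. In Gpnmb/Mmp12 macrophage-like cells 9 members had a ratio, none past 2-fold, and the median was 0.01 against 0.04 over all genes. *Fth1* in the Ccl8/Mrc1 class (0.02) turned to -0.02 both with TMM scaling and with mitochondrial, ribosomal and rRNA-associated genes left out of the total.

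**Figure D3:**
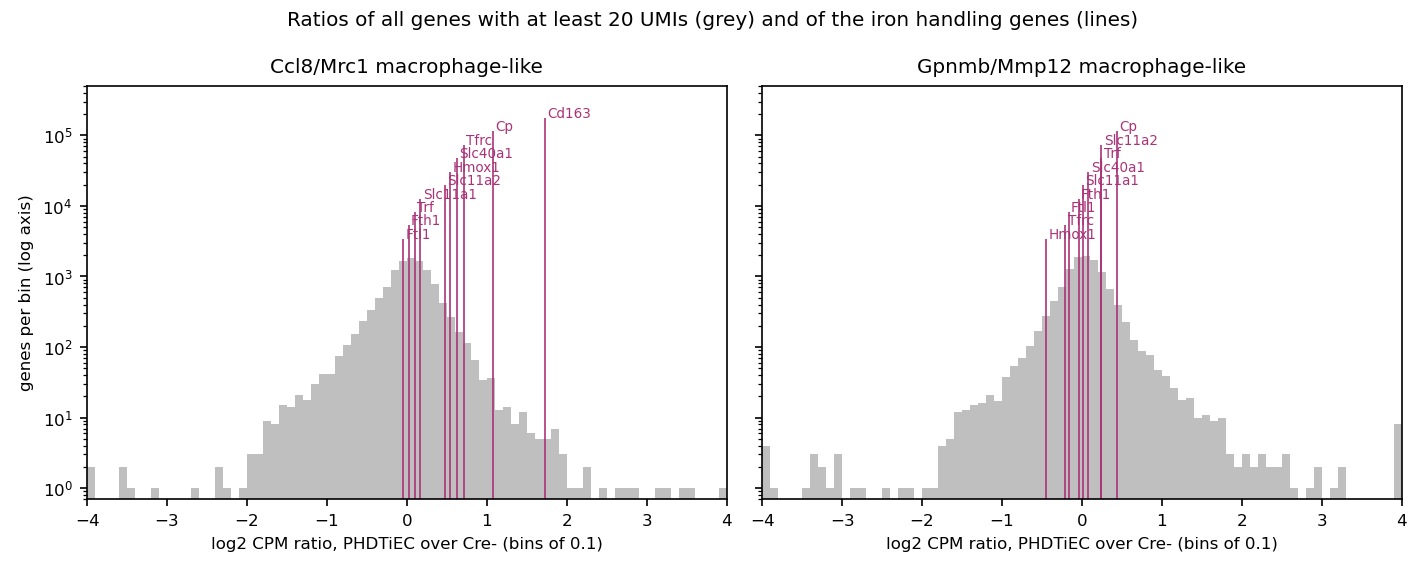
Histograms of the log2 CPM ratio (PHDTiEC over Cre-, bins of 0.1) of all genes with at least 20 UMIs in the Ccl8/Mrc1 (left) and Gpnmb/Mmp12 (right) macrophage-like classes, with the number of genes on a log axis and the members as lines whose height carries no value. *Cp* (1.08) and *Cd163* (1.72) lay in the right tail in the Ccl8/Mrc1 class, whereas in the Gpnmb/Mmp12 class the members ran from -0.45 to 0.44.

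In endothelium, where the Cre is driven, the members other than ferritin had few UMIs, and they did not move together. Endothelial-like cells, the medullary (mREC-like, 186 and 231 cells) and cortical (cREC-like, 127 and 210 cells) classes summed, gave a ratio for 9 members, with a median log2 ratio of -0.18 against -0.00 over all genes. Of these, 1 was past 2-fold, *Slc40a1*, with 21 and 14 UMIs (-1.03, -2.12 to 0.01), against 5.12% of 11500 genes. *Cp* stood at 27.01 and 20.3 CPM from 75 and 77 UMIs (-0.41, -0.89 to 0.07), an interval that includes 0 and lies within 2-fold. All 9 endothelial markers were seen in both classes and both libraries.

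In mREC-like cells both ferritin chains were lower in PHDTiEC, *Fth1* at 3054 and 2079 CPM (log2 ratio -0.55, -0.61 to -0.50) and *Ftl1* at 2269 and 1752 CPM (-0.37, -0.43 to -0.31). *Trf* was lower past 2-fold, with 58 and 34 UMIs, 32.6 and 13.2 CPM (-1.30, -1.96 to -0.67; 5.4% of genes in the class were past 2-fold), although this ratio was -0.94 without the highest doublet scores and -0.16 at a clustering resolution of 0.4. Macrophage markers moved the same way in these cells, all 9 seen in both libraries and summing to 560 and 414 CPM. Their part in these differences was not tested.

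In cREC-like cells the same genes were higher in PHDTiEC: *Fth1* at 3912 and 4638 CPM (0.25, 0.19 to 0.30), *Ftl1* at 2493 and 3049 CPM (0.29, 0.22 to 0.36), and, past 2-fold in a class with 7.94% of genes past it, *Trf* with 25 and 66 UMIs (25.0 and 54.1 CPM; 1.11, 0.43 to 1.84) and *Hmox1* with 28 and 89 UMIs (28.0 and 72.9 CPM; 1.38, 0.75 to 2.05). The share of cells with a UMI of *Hmox1* did not differ in the same direction, at 17.3% and 16.7%, and the highest cells held 3 and 15 UMIs. All 9 macrophage markers were seen in both libraries and summed to 954 and 1651 CPM in these cells. *Hbb-bs* stood at 723 and 1430 CPM, with 672 of 722 and 1380 of 1746 UMIs in 1 cell of each library. Free RNA held *Fth1* at 7477 and 7833 CPM and *Ftl1* at 4237 and 4379 CPM, above their levels in either endothelial class. The share of free RNA, estimated as for the tubule, was 39.4% and 31.2% in cREC-like and 12.5% and 14.1% in mREC-like cells. The part of macrophage, red cell or free RNA in these levels and differences was not tested. Without the 5% of barcodes with the highest doublet scores, *Trf* stood at 0.01, *Hmox1* at 0.28, *Fth1* at -0.33 and *Ftl1* at -0.10, so none of these differences remained 2-fold and both ferritin ratios changed sign.

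**Figure D4:**
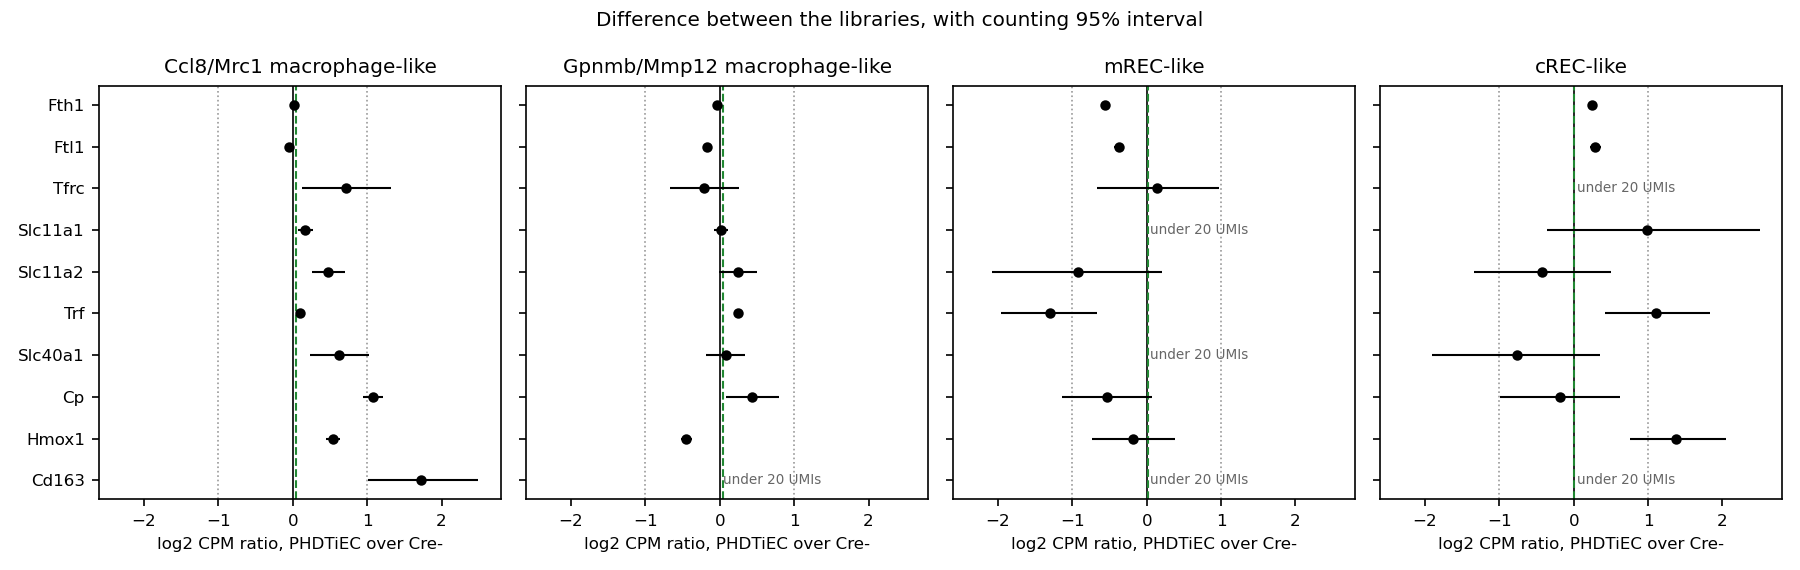
Log2 CPM ratio of each member (PHDTiEC over Cre-) with its 95% counting interval in both macrophage-like and both endothelial-like classes; dotted lines mark 2-fold, the dashed line is the median of all genes of the class, and members under 20 UMIs have no point. In Ccl8/Mrc1 macrophage-like cells 9 of 10 intervals lie above 0, and ferritin and *Trf* lie below 0 in mREC-like and above 0 in cREC-like cells.

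Of the 11 pairs past 2-fold, 3 stayed past it under every alternative processing: *Cp* (log2 ratio 1.03 to 1.17) and *Cd163* (1.66 to 2.33) in Ccl8/Mrc1 macrophage-like cells and *Slc11a1* in fibroblast-like cells (1.14 to 3.98). *Hmox1* in fibroblast-like cells, with 38 and 178 UMIs at 20.2 and 42.4 CPM (1.07, 0.56 to 1.61), turned to -0.74 without the highest doublet scores. The remaining pairs were *Slc11a2* (7 and 19 UMIs; 1.14, -0.17 to 2.63) and *Slc40a1* (8 and 23 UMIs; 1.22, 0.01 to 2.59) in pericyte-like cells, the latter turning to -1.08 when cells were weighted equally, besides *Slc11a1* and *Cp* there and *Trf* and *Hmox1* in endothelium.

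**Figure D5:**
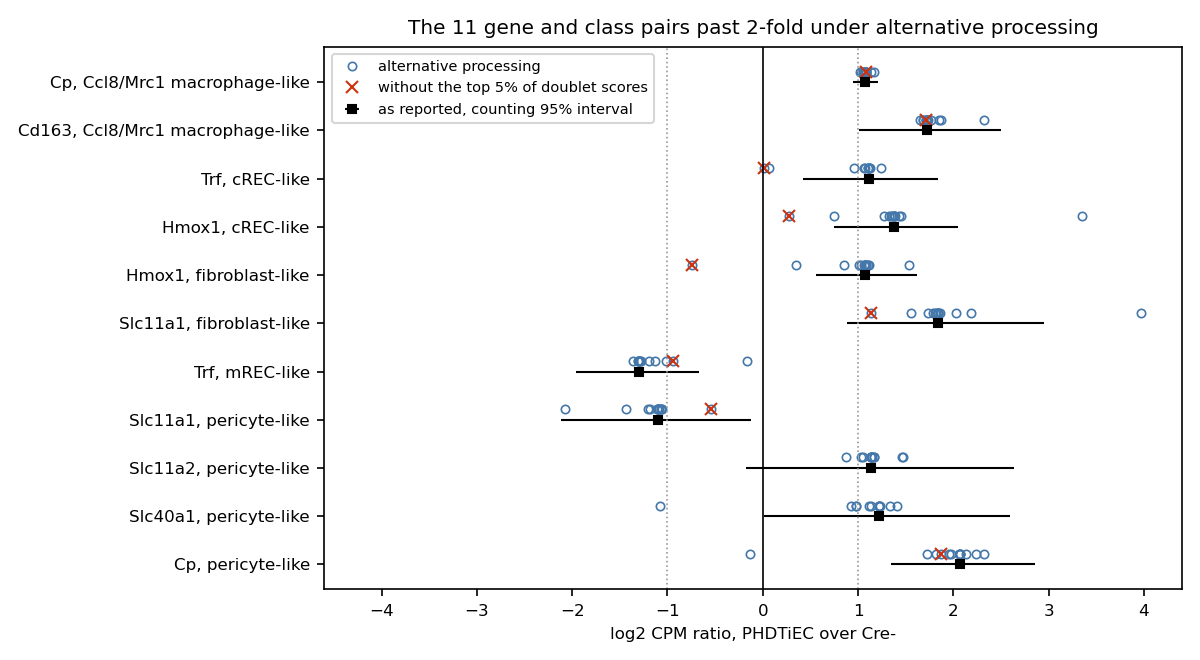
Log2 CPM ratio of the 11 pairs of gene and class past 2-fold: squares with lines are the values reported with their 95% counting intervals, circles the values under alternative processing and crosses those without the highest 5% of doublet scores (no cross where fewer than 20 UMIs were left). Values of *Cp* and *Cd163* in Ccl8/Mrc1 macrophage-like cells stay right of the 2-fold line, whereas *Hmox1* in fibroblast-like cells crosses 0.

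A further 49 genes of iron storage, import, export, heme, regulation and mitochondrial iron gave 591 ratios of 931 combinations. Of these, 35 (5.92%) were past 2-fold, 18 higher and 17 lower, against 4.43% of all gene and class combinations. In Ccl8/Mrc1 macrophage-like cells none of the 35 with a ratio was past 2-fold, against 2.47% of all genes of the class. Their median log2 ratio was 0.08, against 0.04 over all genes. *Heph*, the membrane-bound relative of ceruloplasmin, was counted 8 and 12 times there. *Hmox2*, *Blvrb* and the other heme genes of the list were not past 2-fold in that class, with *Blvrb*, a biliverdin reductase, at 221 and 226 CPM.

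*Lcn2*, which encodes the siderophore-binding protein lipocalin 2 and is a tubular injury gene, was past 2-fold in both directions. In Gpnmb/Mmp12 macrophage-like cells 310 and 1011 UMIs gave a log2 ratio of 1.37, with 583 of the 1011 in 1 cell and UMIs in 26.9% and 20.5% of cells. In endothelial-like cells 875 and 241 UMIs gave -2.31. Haptoglobin (*Hp*) was lower in endothelial-like cells as well, with 53 and 17 UMIs (-2.09), and *Steap2*, a metalloreductase, had 13 and 7 (-1.34), whereas *Heph* had 14 and 41 (1.10). In cREC-like cells *Flvcr1*, a transporter first described for heme, had 17 and 9 UMIs (-1.21) and *Bmp6*, a signal for hepcidin, 5 and 16 (1.39). The injured PT markers moved with *Lcn2* in endothelium, at 6595 and 1969 CPM in cREC-like and 1302 and 472 CPM in mREC-like cells. In Gpnmb/Mmp12 macrophage-like cells they went the other way from *Lcn2*, at 8301 and 5387 CPM, and the 6 neutrophil markers stood at 82.5 and 119 CPM. The part of either list in these differences was not tested.

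Across the 19 classes (mean of both libraries, 14616 genes compared) each member had genes of a like pattern, by Pearson r of log2(CPM + 1). The classes share libraries and depth, so these are descriptions. For *Cp* they were *Tslp* (0.88), *Prxl2a* (0.87) and *Wdpcp* (0.86); for *Hmox1*, *Ctsb* (0.90), *Fnip1* (0.90) and *Tcirg1* (0.88); for *Trf*, *Pid1* (0.92), *Lpcat2* (0.90) and *Gm21188* (0.89). *Slc11a1* was nearest to the myeloid receptor genes *Cd300a* (0.98), *Igsf6* (0.97) and *Pilrb2* (0.96). *Fth1* and *Ftl1* were near each other (0.92), and *Ftl1* was nearest to its copy *Ftl1-ps1* (0.97). *Slc40a1* was nearest to *Spsb2* (0.87), *Tfrc* to *Nfx1* (0.81), *Slc11a2* to *Ptgr2* (0.85) and *Cd163* to *Myom1* (0.88), the last with *Cd163* at 0 UMIs in 9 classes.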

How the data were processed

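One kidney library per genotype was analysed. The authors deposited unfiltered UMI counts per gene and barcode (10X Genomics 3′ v3.1); the submitters' processing notes name Cell Ranger and mm10, and the version is not given in the sources used here. No ambient correction had been applied to these deposited counts. Barcodes with 500 to 100000 UMIs, at least 200 genes and at most 50% mitochondrial UMIs were kept. They were clustered in Seurat 5.3.0 under R 4.3.3 (2000 variable genes less 16 iron genes, 20 principal components, resolution 0.8), and the cluster with the largest share of *Gm26917* was left out. Clusters were named from fixed markers. Doublets were not removed in the reported values: the doublet caller of scanpy 1.11.5 marked 0 barcodes in either library at its automatic threshold, so an alternative left out the top 5% of scores (444 and 471 barcodes).

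UMIs were summed per class and library and expressed as CPM of the class total. Ratios needed 20 UMIs over both libraries, and 2-fold was the size threshold. With 1 library per group there was no test. Intervals were Clopper-Pearson (95%, counting error only). The ratio and its interval were checked on simulated Poisson counts, which hold no clumping of UMIs in single cells. The alternatives are given in the closing section, with TMM from edgeR 4.0.16. All 10 members are named, with further genes only where past 2-fold in endothelial-like or macrophage-like cells or as examples, and the members and lists were chosen with earlier results of these data known. Gene names matched GENCODE vM21 for 32158 of 32285 identifiers. The summed erythroid markers are not reported here.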

Additional observations from a re-analysis of the deposited data

Results flagged for a closer look

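Several members had ratios of opposite sign in 2 related classes, in log2 CPM ratio, PHDTiEC over Cre-, with both counting intervals to one side of 0. *Hmox1* was at 0.542 in Ccl8/Mrc1 and -0.448 in Gpnmb/Mmp12 macrophage-like cells. *Fth1* was at 0.0223 and -0.0414 in the same classes, and the first of these values changed sign under another scaling. In mREC-like and cREC-like cells, *Fth1* was at -0.555 and 0.246, *Ftl1* at -0.373 and 0.29 and *Trf* at -1.3 and 1.11. Each class had 1 library per genotype, so the difference between classes was not tested.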

How the results depend on the processing

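No paired analysis was possible because each group had 1 library. The number of pairs past 2-fold was 11 as reported, 9 to 15 under 14 alternatives and 19 with no minimum of UMIs. The endothelial-like median was -0.18 as reported and -0.39 to -0.08 under the alternatives. Of 72 pairs with an interval to one side of 0, 53 kept their sign under every alternative run. The 26 log2 ratios that changed sign, the cause of which was not tested, were as follows. Without the highest doublet scores, *Ftl1* was 0.060 in T-like, -0.35 in fibroblast-like, 0.050 in IMCD or thin limb-like and -0.095 in cREC-like cells, *Fth1* -0.33 in cREC-like, *Trf* -0.038 and *Hmox1* -0.74 in fibroblast-like and *Hmox1* -0.099 in endothelial-like cells. With cells weighted equally, *Ftl1* was -0.056 in fibroblast-like, -0.014 in cREC-like and -0.020 in IC-like cells, *Cp* 0.15 in fibroblast-like and -0.14 in pericyte-like cells and *Slc40a1* -1.08 in pericyte-like cells. Without the highest cell, *Cp* was 0.096 in fibroblast-like cells. With the ambient profile subtracted, *Fth1* was 0.36 and *Ftl1* 0.16 in IC-like cells with CD markers, and *Ftl1* -0.0050 in fibroblast-like cells. Leaving mitochondrial, ribosomal and rRNA-associated genes out of the total gave *Fth1* -0.022 in Ccl8/Mrc1 macrophage-like and *Ftl1* -0.045 in CD-like cells, and TMM gave *Fth1* -0.018 in Ccl8/Mrc1 macrophage-like cells. At resolution 0.4, *Cp* was -0.064 in PT-like and *Fth1* -0.0080 in CD-like cells. At 30 components, *Fth1* was 0.21 and *Ftl1* 0.034 in dendritic-like cells. At a complexity of at least 0.8, *Ftl1* was 0.073 in IMCD or thin limb-like cells. The free RNA profile and the few cells of small classes limit the low values, and 39 of 190 pairs had too few UMIs for a ratio.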
